A study of Mus musculus with 6 samples.

Results

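The SALL genes are the mouse relatives of the Drosophila gene spalt, and the data described here are the AGO2 target peaks that lay in the spans of the 4 members Sall1, Sall2, Sall3 and Sall4. Members' peaks were all peaks of the deposited mm10 list whose midpoint fell within the RefSeq GRCm38.p6 span of a member, and 17 of the 3292 peaks met this rule. Sall1 held 16 of them, Sall3 held 1, and Sall2 and Sall4 held 0. The genes were chosen by the positions of these peaks, so the number and place of the peaks are a description, without a test.

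All samples came from mouse embryonic stem cells of the genotype Spy3-Ago2, in libraries named E14. AGO2 is the Argonaute protein that microRNAs (miRNAs) guide to other RNAs, and in this line it bears a Spy3 tag, which SpyCatcher3 binds. Growth was on gelatin in medium with serum and LIF, a cytokine used to hold stem cells in the undifferentiated state. There were 2 target libraries and 2 miRNA libraries of the pulled-down RNA, and 2 input libraries of lysate RNA, all 6 of the same genotype, so that no library of untagged cells was compared. A single peak list stood for the series, with no value per library, and the sources used here do not say whether the input libraries entered it. A peak is therefore a listed interval of RNA from the pull-down, with no replicate error, and its binding by AGO2 was not tested. How many cells carried an RNA and how much each cell held cannot be told apart in such bulk samples.

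SALL proteins are transcription factors with zinc fingers arranged in pairs along the protein, and a short motif at their N-terminus recruits the NuRD complex, which removes histone acetylation and remodels nucleosomes. Sall4 is required in the early embryo and supports the self-renewal of embryonic stem cells, where its protein binds partners such as Oct4 (the product of Pou5f1) and Nanog. Sall1 is also expressed in embryonic stem cells and is required for kidney development, and mutations of its human counterpart cause Townes-Brocks syndrome. miRNAs guide AGO2 by pairing of their seed, nucleotides 2 to 8, with sites that are best known from the 3' untranslated regions of messenger RNAs and also occur in coding sequence.

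The guides that AGO2 carried in the same cells are shown because a site in a SALL RNA is bound through a guide, whether one of these or a rarer one. These are the 5 most abundant miRNAs of the 2 miRNA libraries, in the RefSeq sequence of the GRCm38.p6 build, 5′ to 3′, with the seed in capitals.
miR-290a-5p: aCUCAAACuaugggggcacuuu
miR-92a-3p: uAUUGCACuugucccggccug
miR-182-5p: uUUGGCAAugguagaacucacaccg
miR-19b-3p: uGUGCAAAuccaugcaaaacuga
miR-16-5p: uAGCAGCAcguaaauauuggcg
No 2 of these seeds are the same. Together the 5 miRNAs made up 46.8% of the miRNA counts. No base sequence of a peak was read here, so no SALL peak was assigned to a guide.

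Sall1 held the second largest number of peaks of any protein-coding gene, after the fibronectin gene Fn1 with 23. Of 21900 protein-coding genes, 8.33% had at least 1 peak, 0.0639% had at least 10 and 0.00913% (Sall1 and Fn1) had at least 16. Of the protein-coding genes with a span of 10 to 30 kb, which includes all SALL genes, 7.7% had at least 1 peak. These shares are the background to the counts of the SALL genes, and nothing is read from 2 of 4 members having a peak, since the members were picked for their peaks.

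The Sall1 span ran over 16921 nt of chromosome 8 (chr8:89027242-89044162), on the minus strand, with 3 RefSeq transcripts. All 16 of its peaks lay on the minus strand, the strand of the gene. Over the whole list, 2440 of 2464 peaks in a single protein-coding gene of known strand (99.0%) lay on the strand of that gene. Exon positions were not used here. As background, most of the coding sequence of a SALL gene lies in a single large exon.

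Read from the downstream end of Sall1, the peaks formed a block of 15 near that end and a single peak far upstream of it. The block reached from 75 to 5821 nt upstream of the end, an extent of 5747 nt or 34.0% of the span. Its peaks covered 1083 nt, 18.8% of the block. By midpoint, 5 peaks lay within 2000 nt of the downstream end, 8 lay between 2000 and 5000 nt, 2 lay at 5688 and 5778 nt, and 1 lay at 15203 nt. No Sall1 peak had its midpoint between 5778 and 15203 nt.

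**Figure D1:**
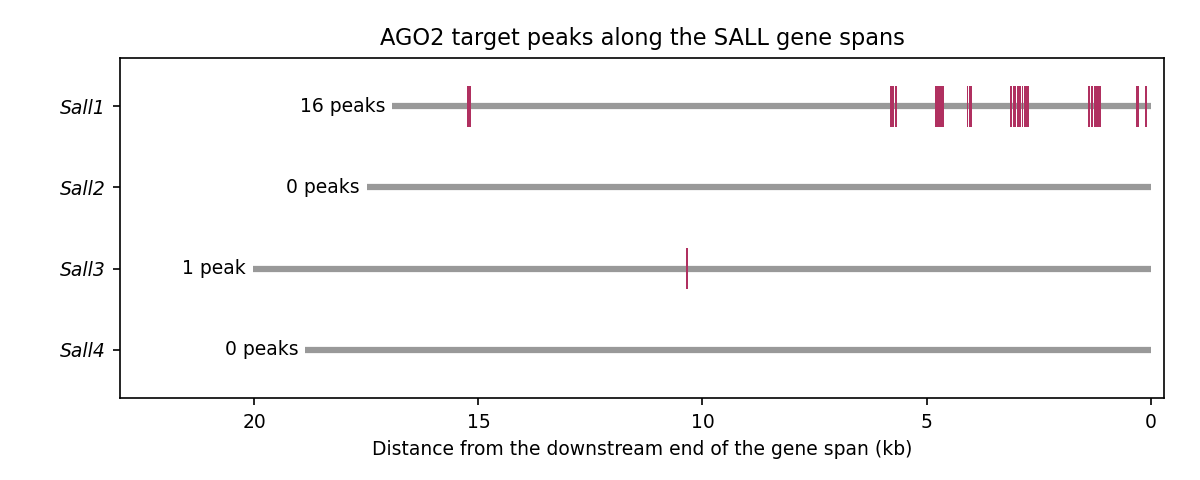
Gene spans of Sall1, Sall2, Sall3 and Sall4 (grey lines), drawn to scale from the downstream end at the right (0 kb), with AGO2 target peaks as red bars of their true width. For Sall3 the downstream end is that of the peak strand. The Sall1 peaks sit in a block within 5821 nt of the end with 1 peak at 15203 nt, the Sall3 peak sits at 10349 nt, and Sall2 and Sall4 have none.

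Joined wherever no more than 200 nt separated neighbours, the 16 peaks formed 7 groups. The first group, 2 peaks of 55 and 66 nt, lay nearest the downstream end at chr8:89027317-89027563, and 126 nt separated its peaks. The second group held 3 peaks of 135, 47 and 41 nt at chr8:89028359-89028640, between 1117 and 1398 nt from the end. The third was the largest, with 5 peaks of 102, 26, 82, 52 and 51 nt at chr8:89029967-89030383. It spanned 417 nt, of which 313 nt were covered by peaks, and began 2725 nt from the end. So the group with the most peaks lay neither at the very end of the gene nor near its start.

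Further upstream the groups were smaller. The fourth group held 2 peaks of 69 and 17 nt at chr8:89031227-89031334. The fifth was a lone peak of 201 nt at chr8:89031862-89032062, the widest of the gene, and 98.5% of all listed peaks were narrower. By contrast, only 0.152% of all listed peaks were narrower than the 17 nt peak in the group next to it. The sixth group held 2 peaks of 53 and 86 nt at chr8:89032904-89033063, and closed the block.

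The seventh group was the single upstream peak, 91 nt at chr8:89042400-89042490. The promoter table gave 3 start sites for Sall1, and the midpoint of this peak lay 417, 1067 and 1717 nt downstream of them. It stood 10.1% of the way along the span and was the only Sall1 peak upstream of the block. The peak also lay inside Gm3134, a long noncoding RNA gene (chr8:89041243-89071019) that overlaps the upstream end of Sall1 and is annotated on the plus strand. The peak was on the minus strand, as Sall1 is. Without it, Sall1 had 15 peaks.

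Widths of the Sall1 peaks ranged from 17 to 201 nt with a median of 60.5 nt and quartiles of 50 and 87.2 nt. The median of all 3292 peaks was 58 nt, with quartiles of 45 and 84 nt. Of the Sall1 peaks, 8 were at or below the median of the list, and 3 of 16 were at least 100 nt wide, against 16.8% of all peaks. Sall1 peaks were thus numerous without being wide or narrow as a group. Together they covered 1174 nt, 6.94% of the span, the fourth largest covered length of a protein-coding gene.

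The spacing of the Sall1 peaks fell into 2 ranges. Of the 15 gaps between neighbouring peaks, 8 (53.3%) were between 21 and 38 nt, and the other 7 were between 126 and 9336 nt. In the whole list, 15.9% of the 1375 gaps between neighbouring peaks of the same gene were at most 50 nt. The median gap was 38 nt in Sall1, against 1391 nt over all such gaps. Gaps were measured on the genome, so any intron between 2 peaks counts in them and they are not distances along the RNA. The 1375 gaps come from genes of all span lengths, and no median for genes with a span like that of Sall1 is given. No 2 peaks on the same strand anywhere in the list were closer than 21 nt, so 3 of the Sall1 gaps were at the smallest distance at which peaks were listed separately. The sources used here do not say which step of the authors' processing set this distance.

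**Figure D2:**
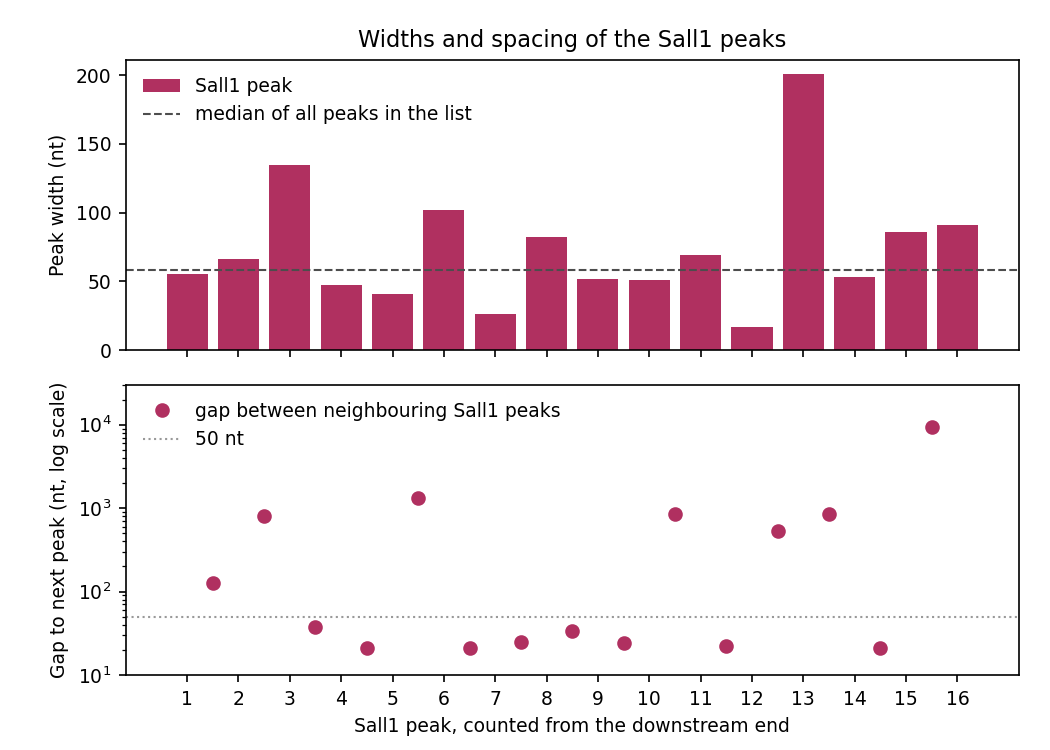
Width of each of the 16 Sall1 peaks in nt (upper panel, bars, with the median of all 3292 peaks as a dashed line at 58 nt) and the gap to the next peak in nt on a log scale (lower panel, points), counted from the downstream end. Widths scatter on both sides of the line between 17 and 201 nt, and 8 of the 15 gaps lie under the dotted line at 50 nt.

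The names of the deposited peaks hold running numbers up to 30438, which rose along each chromosome and strand, and 10.8% of these numbers were listed. The sources used here do not say what the unlisted numbers stood for. In Sall1 the listed peaks ran from number 14027 to 14064, so that 16 of 38 numbers (42.1%) were listed. This was the second highest share among the 14 genes with at least 10 peaks, whose shares ranged from 11.7% to 55.0% with a median of 25.6%. Such a share starts and ends on listed peaks, which raises it by construction, most of all in genes with few peaks. In Sall3, with 1 peak, it was 100%.

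Within Sall1, none of the 8 gaps of at most 38 nt skipped a number. Each of the 7 wider gaps skipped at least 1. Listed peaks were at least 15 nt wide and at least 21 nt from their neighbours on the same strand. A gap of at most 38 nt has no room for a further interval of that kind, so nothing is read from this difference. The block at the downstream end took up 34 numbers, 19 of them unlisted. The widest gap, 9336 nt between the block and the upstream peak, skipped 3 numbers. Most unlisted numbers of Sall1 thus fell in the downstream block, as most listed peaks did.

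Set beside all other genes, Sall1 had a larger share of its peaks between 2000 and 5000 nt from the downstream end and a smaller share far from it. The median distance to that end was 2989.5 nt in Sall1 and 3936.5 nt in other genes. In other genes with a span of 10 to 30 kb it was 2892 nt, slightly less than in Sall1. In Sall1, 31.2% of the peaks lay within 2000 nt of the downstream end and 8 of 16 between 2000 and 5000 nt. Among the 3054 nuclear peaks in exactly 1 other protein-coding gene, 36.0% and 18.2% lay there, and the first of these shares differs from that of Sall1 by less than 1 peak. Beyond 10 kb lay 6.25% of the Sall1 peaks and 34.6% of those in other genes. Of the 784 peaks in other genes with a span of 10 to 30 kb, 42.9% lay within 2000 nt, 20.4% between 2000 and 5000 nt and 18.0% beyond 10 kb. Peaks of a single gene share their transcripts and are not independent, so these shares carry no test. The median position was 82.3% of the way along the span in Sall1 and 83.6% in other genes, so by this measure they stood close together.

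Among the 14 genes with at least 10 peaks, Sall1 had the second smallest median gap. Fgf4, which encodes a growth factor of embryonic stem cells, had a median gap of 26.5 nt with 11 peaks, and 8 of its 10 gaps were at most 50 nt. By peaks per span length, Sall1 with 9.46 per 10 kb also stood second among the 14, after Fgf4 with 28.5 per 10 kb. Fn1, the gene with more peaks than Sall1, had a median gap of 1344 nt and 1 of its 22 gaps at most 50 nt. The peaks of Sall1 and Fgf4 were thus grouped in runs, and those of Fn1 were scattered over its span. Such runs were not particular to Sall1 and Fgf4. Lamp2, with 10 peaks, had a median gap of 75 nt and 4 of its 9 gaps at most 50 nt. Below 10 peaks, the median gap was 35 nt in Txnip with 8 peaks and 30 nt in Lefty1 with 7. All Txnip and Lefty1 peaks lay within 2000 nt of the downstream end. The median over the 14 genes was 597 nt.

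Within 5000 nt of the downstream end lay 81.2% of the Sall1 peaks, the third highest share of the 14 genes. Over the nuclear peaks in exactly 1 other protein-coding gene, 54.2% lay within 5000 nt. In such genes with a span of 10 to 30 kb, 63.3% did. All peaks of Fgf4 and Akap12, a scaffold protein gene, lay within that distance, and the Fgf4 span is itself only 3860 nt. Akap12 had 12 peaks with a median gap of 142 nt. Srrm2, a splicing factor gene, had 53.3% of its 15 peaks there. Among the chromatin genes, the histone demethylase gene Kdm5b had 18.2%, the DNA demethylation gene Tet1 21.4%, Mga 27.3% and the Polycomb partner Jarid2 30.8%. The histone methyltransferase gene Nsd1, by contrast, had 8 of its 10 peaks there (80%), next below Sall1. The ubiquitin ligase gene Huwe1 had 7.69% and Fn1 had 4.35%. In Sall1, 5000 nt make up 29.5% of the span, which is more than in any longer gene named here.

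**Figure D3:**
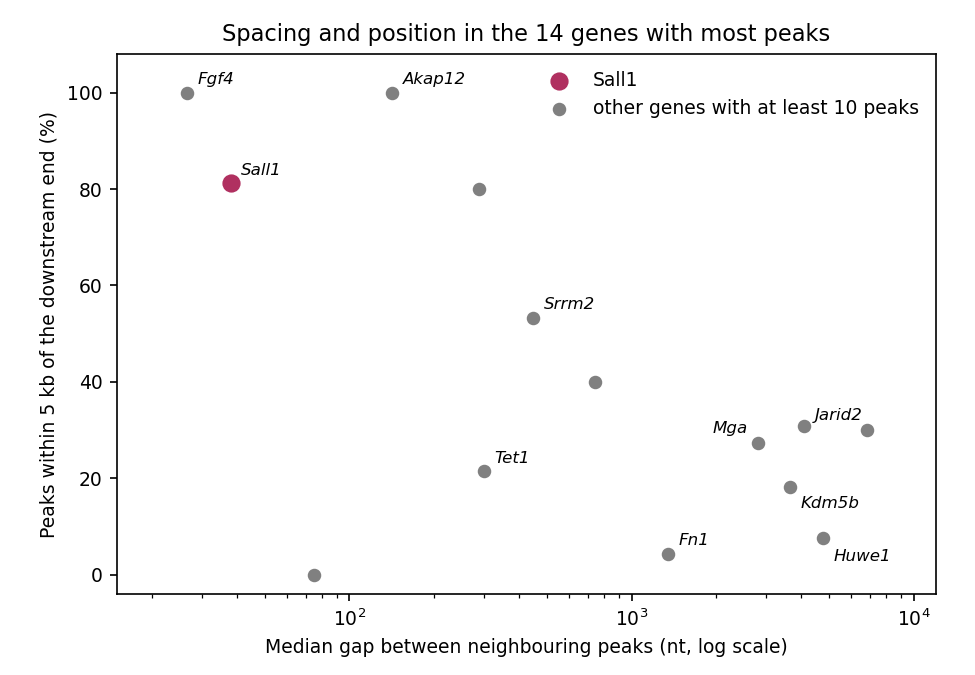
Each point is 1 of the 14 protein-coding genes with at least 10 peaks. The x axis gives the median gap between neighbouring peaks in nt on a log scale and the y axis the share of peaks within 5 kb of the downstream end in percent, with names for the 10 genes with the most peaks. Sall1 (red) lies near the upper left at 38 nt and 81.2%, with Fgf4 and Akap12 as the named genes closest to it.

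The genes whose peaks were placed most like those of Sall1 were sought among the 96 other protein-coding genes with at least 5 peaks, by the Kolmogorov-Smirnov distance between relative positions along the span, where 0 means identical and 1 means no overlap. Igf2bp1, an RNA-binding protein gene, and Pfkp, a glycolysis gene, came first at a distance of 0.225 with 5 peaks each. Srrm2 followed at 0.246 with 15 peaks. The median distance over the 96 genes was 0.540. The likeness covers relative position only, since the median gap was 3620 nt in Igf2bp1, 5716 nt in Pfkp and 449 nt in Srrm2, against 38 nt in Sall1. With 5 peaks in a gene, such a distance is coarse.

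**Figure D4:**
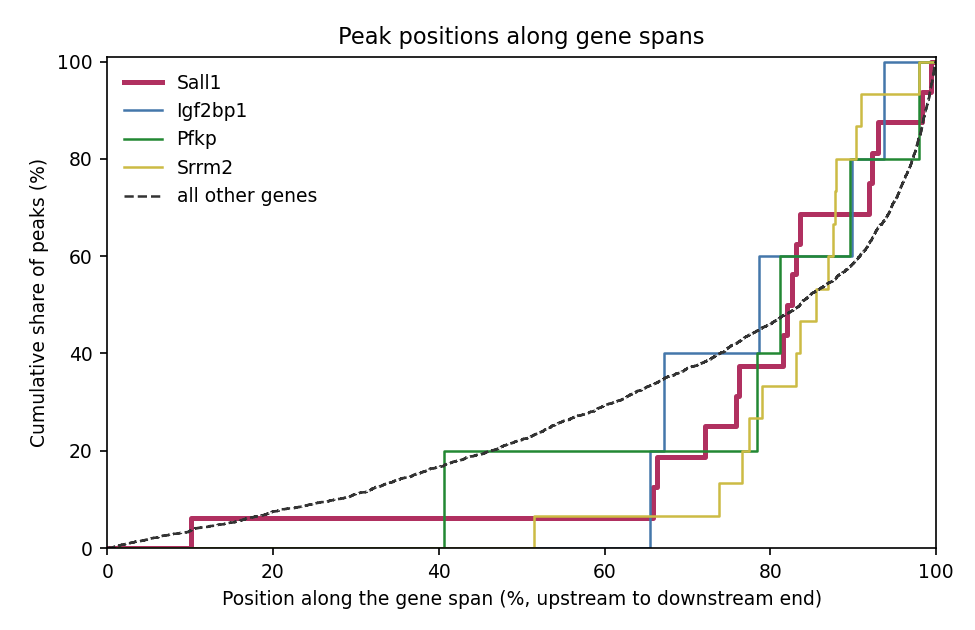
Cumulative share of peaks in percent against position along the gene span in percent, from the upstream end (0) to the downstream end (100), for Sall1 (thick red line), the 3 genes nearest to it and the peaks of all other protein-coding genes (dashed). The Sall1 line stays low after its first peak at 10.1%, rises steeply between about 66% and 99%, and crosses the dashed line near the median of 82.3%.

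Sall3, which mice need for normal development of the palate and cranial nerves, had a single peak of 37 nt at chr18:80977320-80977356, within a span of 20033 nt (chr18:80966989-80987021) with 3 transcripts. Only 10.6% of all peaks were narrower. It lay on the minus strand, 48.3% of the way along the span in that direction and 10349 nt from the downstream end. The strand of Sall3 itself was not in the tables used here. Sall3 thus shared neither the number nor the downstream placement of the Sall1 peaks, and it was among the 1189 protein-coding genes with exactly 1 peak. The nearest listed peaks outside the span lay 836629 nt below it and 3972128 nt above it.

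Sall2, a gene whose human counterpart has been studied as a candidate tumour suppressor, had no peak in its span of 17494 nt (chr14:52311177-52328670) on the minus strand, with 2 transcripts. The nearest listed peak on the lower side ended 73697 nt from the span, and the nearest on the upper side began 2136940 nt from it. Running numbers on the minus strand jumped from 23345 below the span to 23383 above it. So 37 unlisted numbers fell in a stretch of more than 3 Mb that contains Sall2 and other genes, and how many of them fell within Sall2 cannot be read from the list.

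Sall4, the member best known from embryonic stem cells, also had no peak, in a span of 18870 nt (chr2:168748332-168767201) with 4 transcripts. The nearest listed peaks lay 530559 nt below the span and 1341760 nt above it, both on the minus strand. Between them 31 unlisted numbers were skipped, which cannot be placed within Sall4 or outside it. The long noncoding RNA gene Gm14261 overlaps the upper end of the span and had no peak there either. The list holds no RNA level for any SALL gene, so that a missing peak shows only that no interval of the gene was listed and not that AGO2 was absent from its RNA.

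At the edges of the rule, the Sall1 peak nearest the downstream end lay 75 nt inside the span. The nearest listed peaks outside the Sall1 span lay 807348 nt below it and 2008885 nt above it, both on the plus strand. Widening each span by 1000 nt at both ends changed no count of the 4 genes. No peak lay near enough for this widening to add it, since the nearest outside any of the 4 spans was 73697 nt away, at Sall2. Shorter spans were not tried. The Sall1 peaks nearest the downstream end had midpoints 102 and 288 nt inside it, so the Sall1 count does depend on where that end is set.

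Of 15 NuRD genes, whose complex SALL proteins recruit, 3 had a peak, which is 20.0% against 8.33% of all protein-coding genes. Chd4, the remodelling ATPase of the complex, had 3 peaks, none within 5000 nt of its downstream end. Gatad2b, a structural subunit, had 3 peaks with 2 of them within that distance. Rbbp4, a histone-binding subunit, had 1 peak. The other 12, with the deacetylase genes Hdac1 and Hdac2 among them, had none.

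Of 19 genes listed for partners and cofactors of SALL4 in stem cells, 10 had a peak (52.6%, against 8.33% of all protein-coding genes), 21 peaks in all. The 8.33% counts protein-coding genes whether or not these cells express them. No share over expressed genes is given, for this list, the NuRD list or the markers below, so no link to SALL4 is read from the difference. Rest, which encodes a repressor of neuronal genes, had most with 6, and 3 of these fell within 5000 nt of its end. Nacc1, a gene for a BTB-domain partner of Nanog, had 3, all within 5000 nt. Esrrb, Klf4 and Lin28a had 2 peaks each, all within 5000 nt. Zfp462 had 2, neither of them there. Nanog, Sox2, Tbx3 and Zfp281 had 1 each. Pou5f1 had none. Crbn, whose human counterpart is the ligase receptor through which thalidomide drugs lead to degradation of human SALL4, also had none. Sall1 had 16 peaks, against at most 6 in any gene of this list or the NuRD list.

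Of 10 embryonic stem cell markers, 7 had a peak (70.0%, against 8.33% of all protein-coding genes), 4 of them shared with the partner list. They were Fgf4 with 11, Tdgf1, Esrrb and Klf4 with 2 each, and Nanog, Sox2 and Zfp42 with 1 each. Among 9 markers of feeder fibroblasts and 10 of early lineages, 0 had a peak. At the background of 8.33%, lists this short would hold fewer than 1 gene with a peak, so these counts say nothing about the presence of such cells. The lists and members were chosen with results of these data known.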

How the data were processed

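RNA held by Spy3-AGO2 was recovered on SpyCatcher3 resin, per the labels' protocols, cut from a protein gel, ligated to adapters with randomised bases and sequenced as single-end reads. The deposited peak list gave position, strand and a score that was 0 for all 3292 peaks, so that no stricter threshold could be set. The authors deposited raw counts per mature miRNA, 12562727 and 22908172 in replicates 1 and 2. The submitters' processing notes list deepTools 3.1.3, DESeq2 1.36.0, Bowtie2 2.4.2, STAR 2.5.2a, cutadapt 2.10, UMI-tools and the mm10 build, without roles. The sources used here do not name the peak caller, its threshold or any pooling of replicates.

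A peak was assigned to each RefSeq GRCm38.p6 gene span that held its midpoint, the assembly of mm10, irrespective of gene strand, and positions were read along the peak strand, counted from 1. Strands and start sites came from the RefSeq promoter windows, which run from 250 bases before to 50 after a start. miRNA shares are means over 2 libraries. The assignment, tested on 500 simulated peaks, recovered 100% of the true genes. Python 3.11.15, numpy 2.4.6, pandas 2.3.3, scipy 1.17.1 and matplotlib 3.10.9 were used.

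Members and lists were chosen with earlier results of these data known. The rule for names took the 4 SALL genes, listed genes with a peak, the 10 genes with most peaks and the 3 genes most like any SALL gene with at least 5 peaks. Nsd1, Lamp2, Txnip, Lefty1, Gm3134, Gm14261, Hdac1, Hdac2, Pou5f1 and Crbn were named after their values were seen. Planned seed searches in peaks and alignments of SALL proteins were not run, since neither peak nor protein sequences were used here.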

Additional observations from a re-analysis of the deposited data

How the results depend on the processing

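Over 53 alternative values for 13 results, 44 kept within 1.5 times the reported value (for shares, within its 95% Clopper-Pearson interval) and 9 moved. That interval treats peaks as independent, which peaks of a single gene are not. For the single Sall3 peak it ran from 0 to 97.5%, so its share could hardly move. Sall2 and Sall4 had 0 peaks under every alternative run, and these values are among the 44. Joining Sall1 peaks at gaps of up to 50 nt left 8, and up to 200 nt left 7, by construction. The share near the Sall1 downstream end, 81.2% within 5000 nt, was 31.2% within 2000 nt and 31.2% in the last 10% of the span. The median Sall1 gap was 129 nt from midpoint to midpoint, which adds the peak widths. By peaks per 10 kb Sall1 ranked 50 of the 1824 protein-coding genes with a peak, and by covered length 4, against 2 by number of peaks. With only peaks of at least 50 nt, Sall3 had 0 peaks and Sall1 12, and by covered length Sall3 ranked 1710, against 636 by number. Leaving out peaks in a second annotated gene was chosen after seeing the data. No paired analysis was possible because the peak list has no value per library, and for the same reason no replicate could be left out.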
